A study of Danio rerio with 12 samples.

Results

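Hox cluster genes of the zebrafish embryo are described here at the tailbud stage, the end of gastrulation. The genes are the rows of the count table whose symbol gives a cluster letter, a paralog group number and the letter of a duplicated copy, such as hoxb1a. This rule took 15 of the 32520 genes of the table. A further 33 Hox rows carry a symbol in the human style with no copy letter, such as HOXB5, and fall outside the rule, so the 15 genes are a part of the 48 Hox rows and not the whole family. The 33 rows are used for comparison. By paralog group, the 15 genes comprise 3 of group 1, 1 each of groups 2, 3, 6, 8 and 11, 2 each of groups 9 and 10, and 3 of group 13. They lie in 7 clusters, with 2 genes in hoxaa, 4 in hoxab, 2 in hoxba, 3 in hoxbb, 2 in hoxca, 1 in hoxcb and 1 in hoxda.

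Total RNA of whole embryos of the TU wild-type strain was sequenced in 12 libraries, 3 in each of 4 groups, and each sample pooled 109 embryos harvested 10 hours after fertilisation. All embryos were injected with 1 ng of a morpholino at the 1 to 2 cell stage. Control embryos received a standard control morpholino, and tif1g embryos a morpholino that blocks translation of tif1g, now named trim33, which encodes a chromatin-associated transcriptional cofactor. Each kind of embryo was kept from 5.3 to 10 hours in 7 µM leflunomide, which blocks dihydroorotate dehydrogenase of pyrimidine synthesis, or in the solvent DMSO. The groups are called control DMSO, control leflunomide, tif1g DMSO and tif1g leflunomide. The morpholino acts in the whole embryo and not in 1 tissue, and no uninjected group was analysed here.

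Hox genes encode homeodomain transcription factors that give cells their position along the head to tail axis. They lie in clusters in which the gene order follows both the order of activation and the position of expression: low group numbers are switched on first and reach the hindbrain, and high numbers follow in the trunk and tail. Teleost fish have duplicated clusters, marked a and b, and many groups have lost a copy. During gastrulation, retinoic acid, Wnt, FGF and the cdx factors activate the early genes, Polycomb complexes keep the clusters silent elsewhere, and Trithorax proteins keep active genes active. Hox proteins bind DNA together with TALE partners of the pbx, meis and pknox families.

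Library totals ran from 27574593 to 32088082 counts. The transcript of trim33 was raised, not lowered, by its own morpholino: 71.2 to 80.6 CPM (the unit of level used throughout, counts divided by the scaled library size) in the control DMSO libraries and 373 to 395 CPM in the tif1g DMSO libraries, a log2 fold change of 2.34 ± 0.06 (SE, 3 libraries a group, adjusted p = 4.98e-15 by edgeR's quasi-likelihood test). A morpholino at the start codon acts on translation, so this value does not measure the knockdown. All 17 measured markers of tailbud stage tissues passed the count filter, with a summed level of 10130 to 11050 CPM in control embryos in DMSO and 8749 to 8990 CPM in control embryos in leflunomide. In tif1g embryos the sum was 9176 to 9551 CPM with DMSO and 9445 to 9671 CPM with leflunomide. The epidermal keratin genes krt4 and krt18a.1 made up 87.9% to 89.8% of this sum in every library, while the other 15 markers together ranged from 1133 to 1190 CPM (control, DMSO), from 1007 to 1091 (control, leflunomide), from 1036 to 1091 (tif1g, DMSO) and from 1005 to 1040 (tif1g, leflunomide). For the knockdown in DMSO 0 of the 17 markers were called higher and 6 lower, beside 32.8% of all genes (15.6% higher and 17.2% lower). With a block on the replicate number, for which no share of all genes is given here, 4 were higher and 9 lower. Among the 6 lower were apoa2 of the yolk syncytial layer (-1.50, adjusted p = 6.95e-06) and foxd3 of the neural crest (-0.74, adjusted p = 0.00195). Between the same groups the mean of sox17 was 19.9 and 26.4 CPM and that of ddx4 15.1 and 21.5 CPM, in control and tif1g embryos. Of 9 measured markers of later tissues 3 passed it, and fabp2 alone was abundant, at 2112 to 5446 counts, while myl7, ins, mbpa, hbaa1 and crygm2d1 had at most 8 counts in any library. The part of these differences in marker level in the Hox values was not tested. In whole embryos, fewer cells of a type and less RNA per cell cannot be told apart. The labels do not say that replicates came from separate clutches, so the p-values measure the spread between these pooled samples.

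Of the 15 Hox genes, 13 passed the count filter and could be tested, and 9 of them were called in at least 1 comparison at an adjusted p under 0.05. The matching share of all genes, pooled over the comparisons, is not given here, so this count of 9 cannot be read against all genes. Between control DMSO and tif1g leflunomide, a single comparison, 36.0% of all genes were called. After tif1g knockdown, the hindbrain genes hoxb1a and hoxa2b fell in DMSO and in leflunomide, by 2.01-fold and 2.26-fold in DMSO, and hoxb10a fell by 1.25-fold in DMSO and 1.26-fold in leflunomide. Leflunomide raised hoxc1a, hoxc3a and hoxa9a and lowered hoxb1b in control embryos, with the largest of these changes in hoxa9a at 1.37-fold. All of these leflunomide calls were lost without replicate 1 or without replicate 2 of all groups, and that of hoxb1b also with library totals alone. In tif1g embryos leflunomide called 0 of the 13 tested genes without a block on the replicate number, beside 0.617% of all genes. With the block it called hoxa9b and hoxa10b, both higher, and also more of all genes. The summed level of the 15 genes was 336, 320 and 358 CPM in control DMSO (mean 338 ± 19.1, SD, n = 3), 372, 352 and 356 in control leflunomide (360 ± 10.6), 360, 325 and 343 in tif1g DMSO (343 ± 17.4) and 365, 361 and 359 in tif1g leflunomide (362 ± 2.82). The largest parts of this sum were hoxc3a and hoxb1b, with means of 116 and 80.3 CPM over the 12 libraries, so the sum mostly follows these genes.

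**Figure D1:**
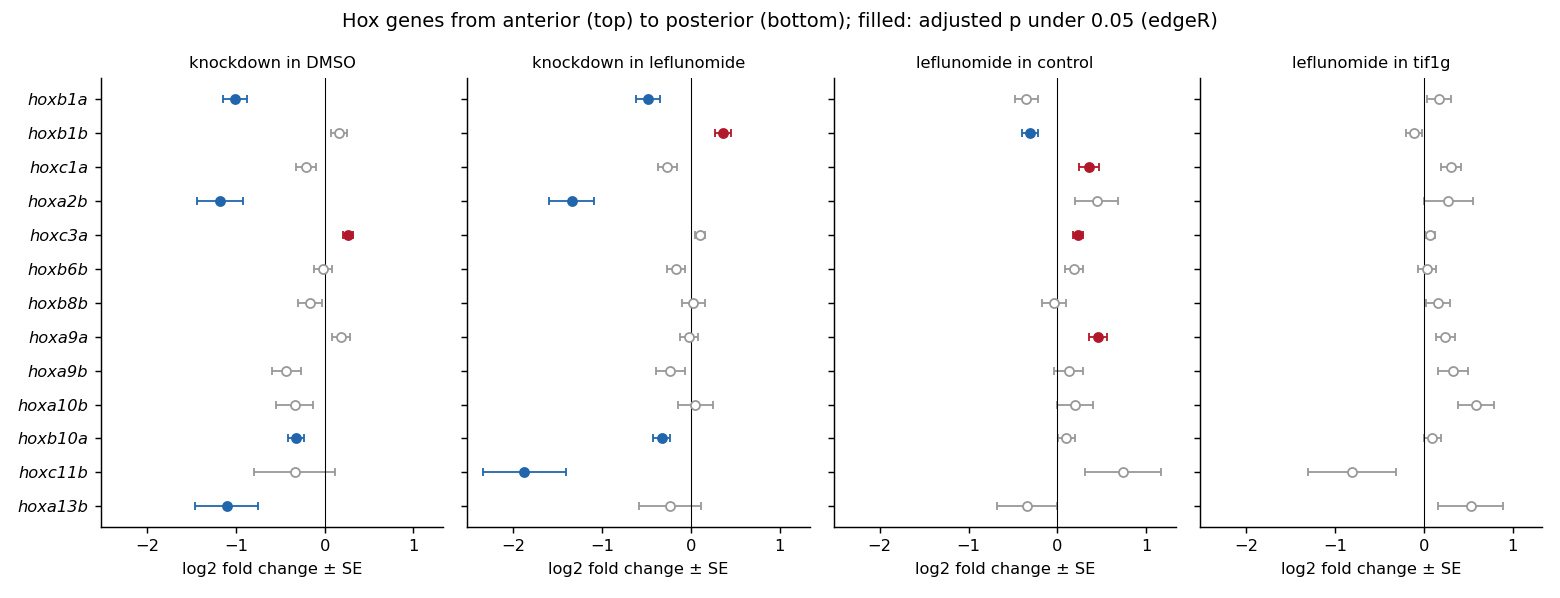
Log2 fold change (x axis, points) with its standard error (bars) of the 13 tested Hox genes, ordered from group 1 at the top to group 13 at the bottom, in 4 panels for the knockdown in DMSO, the knockdown in leflunomide, leflunomide in control embryos and leflunomide in tif1g embryos. Filled points, blue for lower and red for higher, have an adjusted p under 0.05: hoxb1a, hoxa2b and hoxb10a are filled blue in both knockdown panels, and no point is filled in the panel for leflunomide in tif1g embryos.

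The knockdown in DMSO, tif1g DMSO against control DMSO, called 5 of the 13 tested Hox genes, beside 32.8% of all 21400 tested genes. Lower were hoxb1a, hoxa2b, hoxb10a and hoxa13b, where 17.2% of all genes were called lower, and higher was hoxc3a, where 15.6% were called higher. The median log2 fold change of the 13 genes was -0.32, and that of all tested genes 0.00. The knockdown in leflunomide called 5 of 13, beside 23.8% of all genes: hoxb1a, hoxa2b, hoxb10a and hoxc11b were lower and hoxb1b was higher, with a median of -0.23. Of all genes 11.8% were called lower there (2530 genes), and 2564 genes were called higher. The share of Hox genes called lies near that of all genes in DMSO and above it in leflunomide. In both arms the 4 genes called lower are above the share of all genes called lower, a difference that was not tested. The count in DMSO rests on single libraries, since it was 3 without control DMSO replicate 1, without control DMSO replicate 3 or without tif1g DMSO replicate 2. That in leflunomide ranged from 2 to 5 when libraries were left out.

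Leflunomide in control embryos called 4 of the 13 genes, 3 higher and 1 lower, beside 21.9% of all genes (8.87% higher and 13.1% lower). With library totals alone in place of scaling factors, the split was 4 higher and 0 lower, and for all genes it turned from 1899 higher and 2796 lower to 3538 higher and 1220 lower, with the median of all genes at 0.16 in place of 0.02. Without control leflunomide replicate 1, or without control leflunomide replicate 2, the count was 2, and without replicate 1 or without replicate 2 of all 4 groups it was 0. Leflunomide in tif1g embryos called 0 of 13, beside 0.617% of all genes. In that comparison 3 Hox genes had an unadjusted p under 0.05 and DESeq2 called 0. The fit with the replicate number as a block called 2, hoxa9b and hoxa10b, both higher. That fit also called more of all genes, so 0.617% is the share of the fit without the block only. The difference between the leflunomide effects in the 2 kinds of embryo is the interaction. It called 0 Hox genes and 0.0% of all genes by edgeR's quasi-likelihood test without the block. The fit with the block called more of all genes for the interaction as well, and these counts stand in the closing section. Of the Hox genes 2 had an unadjusted p under 0.05 there, and the block and DESeq2 each called 0, so that a difference between the arms was not shown for any of the 13 genes. The comparisons share groups of libraries, so a gene's values in 2 of them are not independent.

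**Figure D2:**
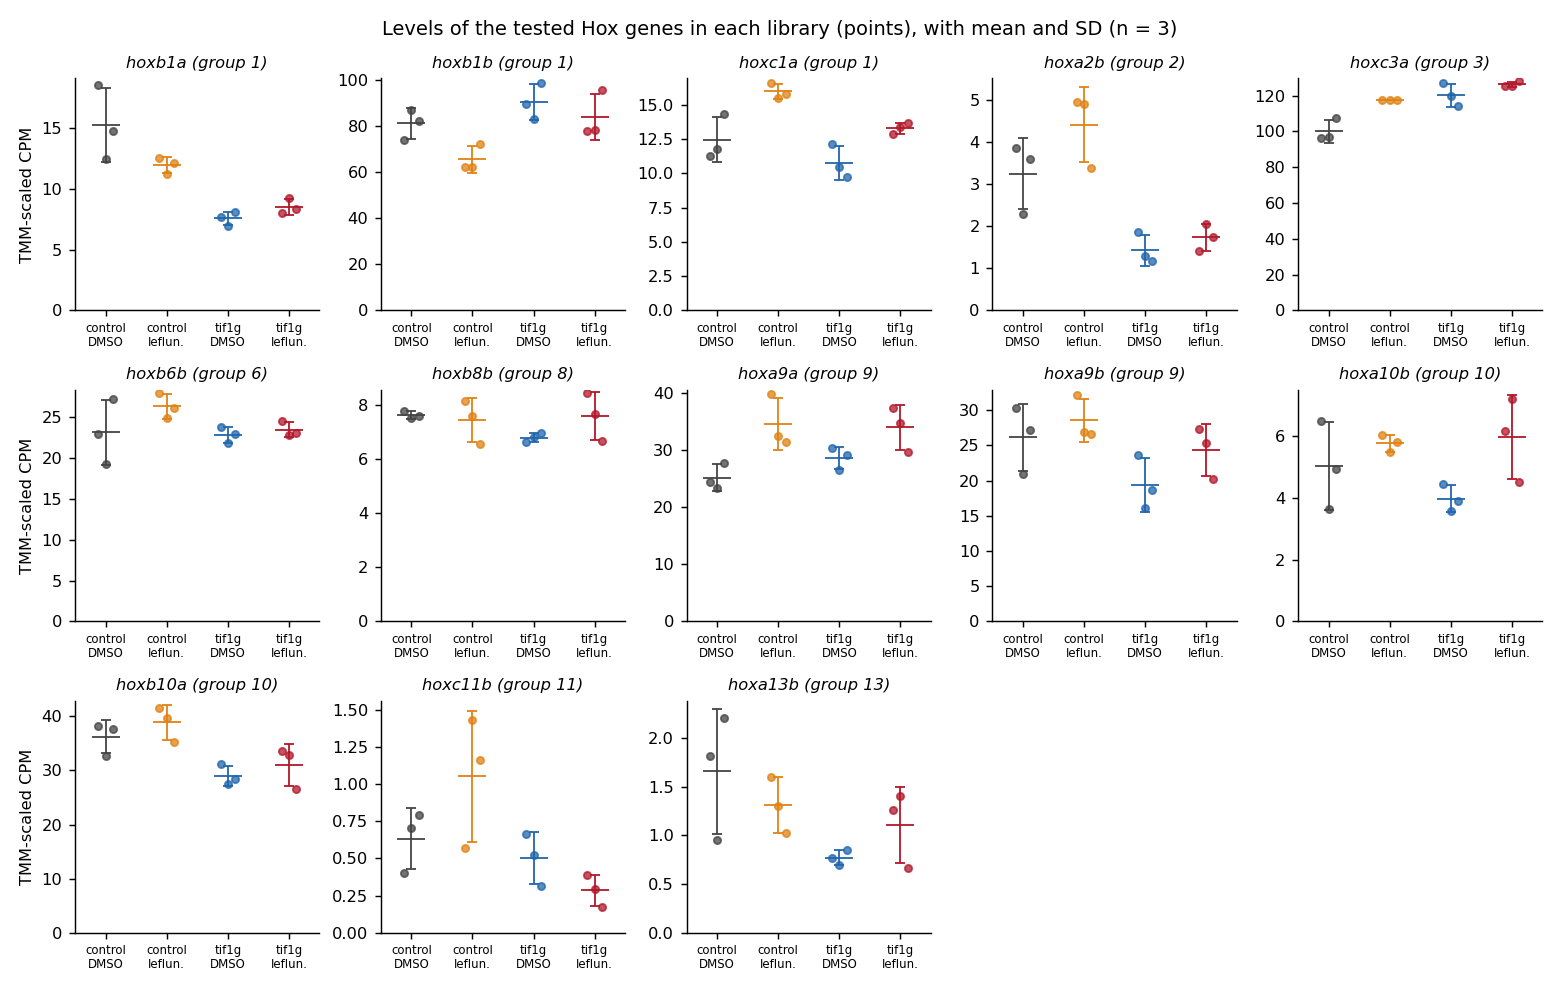
Level of each of the 13 tested Hox genes in each library (points, y axis from 0 in scaled CPM), with the mean and SD of the 3 libraries of each of the 4 groups on the x axis. In the panels of hoxb1a and hoxa2b all tif1g libraries lie below all control libraries, while for hoxc3a the control DMSO libraries are the lowest.

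Among the group 1 genes, hoxb1a is needed for the identity of the hindbrain segment that makes the facial motor neurons. It (ENSDARG00000008174) stood at 18.5, 12.5 and 14.8 CPM in control DMSO and 7.66, 6.98 and 8.08 CPM in tif1g DMSO. With leflunomide it stood at 12.5, 11.2 and 12.2 CPM in control embryos and 7.97, 9.28 and 8.34 CPM in tif1g embryos. All 6 control libraries lay above all 6 tif1g libraries. The knockdown lowered hoxb1a by a log2 fold change of -1.01 ± 0.13 in DMSO (adjusted p = 1.41e-05, 2.01-fold lower) and of -0.49 ± 0.13 in leflunomide (adjusted p = 0.012, 1.40-fold lower). The call in DMSO held under every alternative run, with adjusted p at most 0.00104. The call in leflunomide was lost without tif1g leflunomide replicate 1 (adjusted p = 0.0509), without replicate 1 of all groups (0.0722) and without replicate 3 of all groups (0.119). Leflunomide in control embryos gave -0.35 ± 0.13 (adjusted p = 0.0622), which passed the threshold with the replicate block (0.0171), with DESeq2 (0.0464) and without control DMSO replicate 2 (0.015). The interaction of hoxb1a was 0.52 ± 0.19 (adjusted p = 0.252, 0.0603 with the block), so the smaller fall in leflunomide was not shown to differ from that in DMSO.

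Its sister copy hoxb1b, an early retinoic acid responsive gene that activates hoxb1a in the fish hindbrain, was not lowered by the knockdown. It (ENSDARG00000054033) stood at 74.1, 87.1 and 82.1 CPM in control DMSO, 62.1, 62.4 and 72.2 in control leflunomide, 89.7, 83.1 and 98.7 in tif1g DMSO and 78.0, 78.2 and 95.6 in tif1g leflunomide. The control leflunomide libraries were the lowest of all and overlapped no other group, while the other 3 groups overlapped each other. Leflunomide lowered hoxb1b in control embryos by -0.31 ± 0.09 (adjusted p = 0.0251), and the knockdown in leflunomide raised it by 0.36 ± 0.09 (adjusted p = 0.00972). The first of these calls was not stable: adjusted p was 0.168 with library totals alone, 0.103 without control DMSO replicate 2, 0.0694 without control DMSO replicate 3, 0.0954 without control leflunomide replicate 1, 0.101 without control leflunomide replicate 2, and 0.0932 and 0.252 without replicate 1 or replicate 2 of all groups. The second was lost only without replicate 1 of all groups (0.0515). The knockdown in DMSO gave 0.16 ± 0.09 (adjusted p = 0.203), which became 0.0304 with the replicate block. In the annotation of assembly GRCz12tu the span of hoxb1b overlaps those of hoxb5b and hoxb6b, and how reads were shared between them is not known.

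The third member of group 1, hoxc1a (ENSDARG00000070337), rose with leflunomide in control embryos. Its levels were 11.2, 11.8 and 14.4 CPM in control DMSO and 16.6, 15.5 and 15.8 CPM in control leflunomide. In tif1g embryos they were 12.1, 10.4 and 9.70 CPM in DMSO and 12.9, 13.3 and 13.7 CPM in leflunomide. The leflunomide libraries lay above the DMSO libraries of the same morpholino without overlap in both arms. The log2 fold change was 0.36 ± 0.11 in control embryos (adjusted p = 0.027) and 0.30 ± 0.11 in tif1g embryos (adjusted p = 0.226), and the interaction was -0.05 ± 0.16 (adjusted p = 0.941). The call in control embryos was lost without any one of these libraries: control DMSO replicate 1 (adjusted p = 0.117), control DMSO replicate 2 (0.0951), and control leflunomide replicates 1, 2 and 3 (0.0926, 0.0584 and 0.0536), and also without replicate 1 (0.211) or replicate 2 (0.189) of all groups. The knockdown in leflunomide gave -0.27 ± 0.11 (adjusted p = 0.0925), which became 0.0442 with the replicate block and 0.0434 in a fit of the compared groups only. The 3 genes of group 1 thus differed in direction for leflunomide in control embryos: hoxc1a was higher and hoxb1b lower, and hoxb1a was below its DMSO level without a call.

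Of group 2 the rule holds hoxa2b (ENSDARG00000023031), which sets the identity of the second pharyngeal arch and is expressed in the hindbrain. It was counted at 3.87, 2.29 and 3.59 CPM in control DMSO and 4.95, 4.92 and 3.40 CPM in control leflunomide. The tif1g libraries held 1.85, 1.28 and 1.16 CPM in DMSO and 1.41, 2.05 and 1.75 CPM in leflunomide. As for hoxb1a, all 6 control libraries lay above all 6 tif1g libraries. The knockdown lowered hoxa2b by -1.18 ± 0.26 in DMSO (adjusted p = 0.00198, 2.26-fold lower) and by -1.34 ± 0.25 in leflunomide (adjusted p = 0.00074, 2.54-fold lower), and every alternative run kept both calls. Leflunomide gave 0.44 ± 0.24 in control embryos (adjusted p = 0.217) and 0.28 ± 0.27 in tif1g embryos (adjusted p = 0.726). Against control DMSO, tif1g leflunomide embryos had -0.90 ± 0.26 (adjusted p = 0.0102), a call lost without control DMSO replicate 1 (0.0528), tif1g leflunomide replicate 1 (0.0519), or replicate 1 (0.151) or replicate 3 (0.0731) of all groups.

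Group 3 is represented by hoxc3a (ENSDARG00000070339), whose log2 fold changes had the smallest standard errors among the 13 tested genes. Its level was 96.1, 96.7 and 107 CPM in control DMSO and 118 CPM in each of the 3 control leflunomide libraries. In tif1g embryos it was 127, 120 and 114 CPM in DMSO and 125, 125 and 128 CPM in leflunomide. The control DMSO libraries were lower than the other 9. The knockdown in DMSO raised hoxc3a by 0.27 ± 0.06 (adjusted p = 0.00126) and leflunomide in control embryos by 0.23 ± 0.06 (adjusted p = 0.00559). The second call was lost without replicate 1 (0.0583) or replicate 2 (0.0984) of all groups. Neither treatment was called on top of the other: the knockdown in leflunomide gave 0.10 ± 0.06 (adjusted p = 0.206) and leflunomide in tif1g embryos 0.07 ± 0.06 (adjusted p = 0.638), with an interaction of -0.16 ± 0.08 (adjusted p = 0.426). Against control DMSO, tif1g leflunomide embryos were higher by 0.34 ± 0.06 (adjusted p = 0.00012). The annotated span of hoxc3a in GRCz12tu overlaps hoxc4a, hoxc5a, hoxc6a, hoxc8a and hoxc9a, so its counts may hold reads of transcripts that run across these genes.

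The trunk genes of groups 6 and 8 were not called in any comparison. Levels of hoxb6b (ENSDARG00000026513) were 22.9, 19.3 and 27.2 CPM in control DMSO, 27.9, 24.8 and 26.1 in control leflunomide, 23.7, 21.8 and 22.9 in tif1g DMSO and 24.5, 22.8 and 23.1 in tif1g leflunomide. The widest spread was among the control DMSO libraries, which held both the lowest value and one of the highest. Its log2 fold change for leflunomide in control embryos was 0.19 ± 0.10 (adjusted p = 0.211), which became 0.0308 with library totals alone and 0.0303 without control DMSO replicate 3. Levels of hoxb8b (ENSDARG00000054025) were 7.78, 7.50 and 7.59 CPM in control DMSO, 8.15, 7.58 and 6.54 in control leflunomide, 6.61, 6.80 and 6.95 in tif1g DMSO and 8.43, 7.65 and 6.65 in tif1g leflunomide. The tif1g DMSO libraries lay below control DMSO without overlap, by -0.17 ± 0.13 (adjusted p = 0.361). The other 4 log2 fold changes of hoxb8b between groups ran from -0.04 to 0.16.

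Group 9 holds both copies of hoxa9, genes of the posterior trunk and tail. The first copy, hoxa9a (ENSDARG00000105013), stood at 24.4, 23.3 and 27.8 CPM in control DMSO and 39.7, 32.5 and 31.4 CPM in control leflunomide. After the knockdown its levels were 30.3, 26.5 and 29.1 CPM in DMSO and 37.4, 34.7 and 29.7 CPM in leflunomide. The leflunomide libraries lay above control DMSO in both kinds of embryo, and those of tif1g embryos overlapped with tif1g DMSO. Leflunomide raised hoxa9a in control embryos by 0.46 ± 0.10 (adjusted p = 0.00383, 1.37-fold higher), a call that was lost without replicate 1 (0.0661) or replicate 2 (0.0625) of all groups. In tif1g embryos it gave 0.25 ± 0.10 (adjusted p = 0.291), and the knockdown gave 0.19 ± 0.10 in DMSO (adjusted p = 0.184). Against control DMSO, tif1g leflunomide embryos were higher by 0.43 ± 0.10 (adjusted p = 0.00304), a call lost without replicate 2 of all groups (0.0722).

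The second copy, hoxa9b (ENSDARG00000056819), stood at 30.3, 20.9 and 27.1 CPM in control DMSO and 32.1, 26.9 and 26.6 CPM in control leflunomide. With the tif1g morpholino they became 23.6, 16 and 18.6 CPM in DMSO and 27.3, 25.4 and 20.2 CPM in leflunomide. The groups overlapped in every comparison, and replicate 1 was the highest library in all 4 groups. The knockdown in DMSO gave -0.43 ± 0.17 (adjusted p = 0.067), which passed the threshold with the replicate block (0.000341), with DESeq2 (0.0212), and without control DMSO replicate 2 (0.0141), tif1g DMSO replicate 1 (0.0145), tif1g leflunomide replicate 3 (0.0452) or replicate 1 of all groups (0.0274). Leflunomide in tif1g embryos gave 0.33 ± 0.17 (adjusted p = 0.418, 0.0252 with the block).

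Both genes of group 10 are posterior trunk and tail genes. Of these hoxb10a (ENSDARG00000011579) stood at 38.2, 32.7 and 37.7 CPM in control DMSO and 41.6, 39.8 and 35.3 CPM in control leflunomide. The tif1g embryos had 31.1, 27.4 and 28.5 CPM in DMSO and 33.5, 32.9 and 26.5 CPM in leflunomide. With the same treatment, each control library lay above each tif1g library. The knockdown lowered it by -0.32 ± 0.10 in DMSO (adjusted p = 0.0139, 1.25-fold lower) and by -0.33 ± 0.09 in leflunomide (adjusted p = 0.0161, 1.26-fold lower), and the interaction was -0.01 ± 0.13. The call in DMSO was lost with library totals alone (0.0567), without control DMSO replicates 1 or 3 (0.0586 and 0.0528), without tif1g DMSO replicate 2 (0.0631), and without replicates 1, 2 or 3 of all groups (0.0509, 0.0524 and 0.0568). That in leflunomide was lost without control leflunomide replicates 1 or 2 (0.0769 and 0.0542), tif1g leflunomide replicate 3 (0.10), or replicates 2 or 3 of all groups (0.0634 and 0.0673). The comparison of tif1g leflunomide with control DMSO gave -0.23 ± 0.09 (adjusted p = 0.0712), which became 0.0115 with the replicate block, 0.0317 without control DMSO replicate 2 and 0.0492 without tif1g leflunomide replicate 1. The other gene, hoxa10b (ENSDARG00000031337), stood at 6.46, 3.63 and 4.94 CPM in control DMSO, 6.01, 5.47 and 5.80 in control leflunomide, 4.45, 3.58 and 3.88 in tif1g DMSO and 6.15, 7.19 and 4.52 in tif1g leflunomide. Among the groups compared, only the 2 tif1g groups did not overlap. Leflunomide in tif1g embryos gave 0.59 ± 0.20 for hoxa10b (adjusted p = 0.191, 0.0315 with the block).

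Genes of groups 11 and 13, the last to be activated and known for the tail and the fin, were close to the detection limit at this stage. The 5 to 44 counts of hoxc11b (ENSDARG00000102631) gave 0.404, 0.704 and 0.794 CPM in control DMSO and 0.568, 1.43 and 1.17 CPM in control leflunomide. In tif1g embryos it stood at 0.665, 0.521 and 0.318 CPM in DMSO and 0.386, 0.293 and 0.175 CPM in leflunomide. The tif1g leflunomide libraries lay below control leflunomide and control DMSO without overlap. The knockdown in leflunomide lowered it by -1.88 ± 0.47 (adjusted p = 0.00662, 3.67-fold lower), a call lost without replicate 2 (0.120) or replicate 3 (0.0924) of all groups. In DMSO the knockdown gave -0.33 ± 0.46 (adjusted p = 0.62), and the interaction, -1.54 ± 0.66, was not called (adjusted p = 0.346). Against control DMSO, tif1g leflunomide gave -1.14 ± 0.49 (adjusted p = 0.0761), which passed only without replicate 1 of all groups (0.0363).

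With 19 to 64 counts, hoxa13b (ENSDARG00000036254) stood at 1.82, 0.950 and 2.21 CPM in control DMSO and 1.60, 1.30 and 1.03 CPM in control leflunomide. Among tif1g embryos it stood at 0.770, 0.694 and 0.847 CPM in DMSO and 1.26, 1.40 and 0.665 CPM in leflunomide. The tif1g DMSO libraries lay below those of both control groups. In DMSO the knockdown lowered hoxa13b by -1.10 ± 0.36 (adjusted p = 0.0226, 2.15-fold lower). This call was lost without control DMSO replicates 1 or 3 (0.0667 and 0.118), tif1g DMSO replicates 1 or 2 (0.0551 and 0.0755), or replicates 1 or 3 of all groups (0.137 and 0.118). Its other 4 comparisons between groups were not called. The remaining group 13 genes did not pass the count filter and were not tested. Their counts were 1 to 14 for hoxa13a (ENSDARG00000100312) and 0 to 6 for hoxd13a (ENSDARG00000059256). The 0 counts of hoxd13a, in control DMSO replicate 1 and tif1g DMSO replicate 1, allow levels of up to 0.101 and 0.105 CPM (3 counts a library, counting error only).

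**Figure D3:**
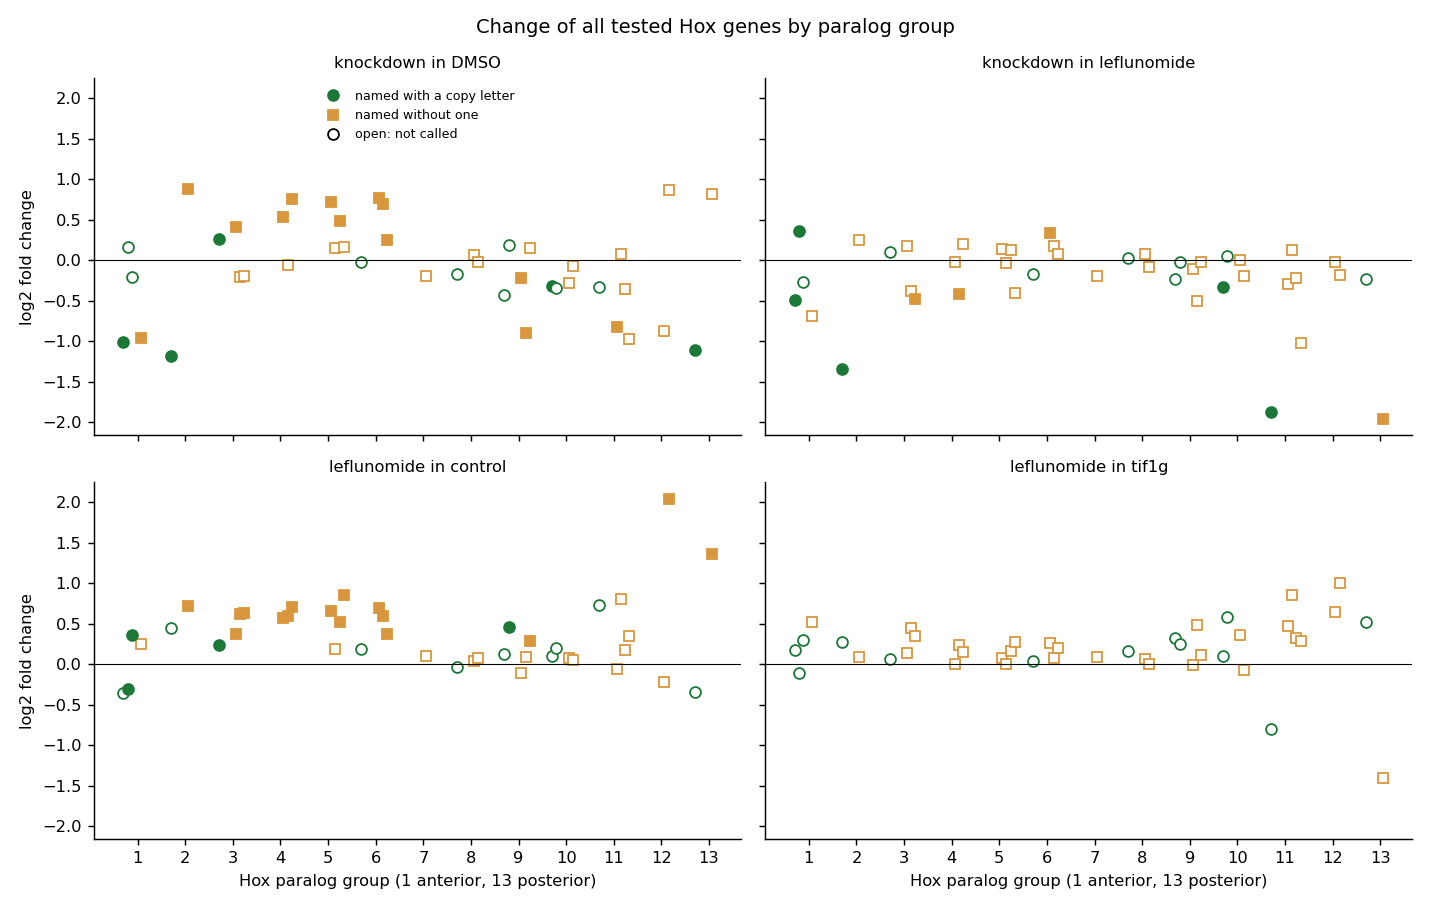
Log2 fold change (y axis) of the 13 tested genes of the rule (green circles) and the 30 tested Hox rows named without a copy letter (orange squares) by paralog group (x axis, from anterior to posterior), in 4 panels for the 4 comparisons between groups that differ in 1 factor. Filled symbols have an adjusted p under 0.05: filled squares of groups 3 to 6 lie above 0 for the knockdown in DMSO and for leflunomide in control embryos, and the fall of hoxb1a and hoxa2b stands at groups 1 and 2.

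Among the 13 tested genes of the rule, hoxb1 and hoxa9 alone had both duplicated copies. The ratio of raw counts of the a copy to the b copy needs no scaling between libraries, and these pairs were examined after their values had been seen. The ratio of hoxb1a to hoxb1b was 0.250, 0.143 and 0.180 in control DMSO and 0.202, 0.180 and 0.169 in control leflunomide. The tif1g embryos gave 0.0855, 0.0840 and 0.0819 in DMSO and 0.102, 0.119 and 0.0872 in leflunomide. Every tif1g library was below every control library. The ratio of hoxa9a to hoxa9b was 0.804, 1.12 and 1.02 in control DMSO, 1.24, 1.21 and 1.18 in control leflunomide, 1.29, 1.65 and 1.57 in tif1g DMSO and 1.37, 1.37 and 1.47 in tif1g leflunomide. Here control DMSO was the lowest group, and the 2 tif1g groups overlapped. The ratios are given as a description, with no test. Since transcript lengths were not used, the ratios compare libraries and not the abundance of the copies.

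**Figure D4:**
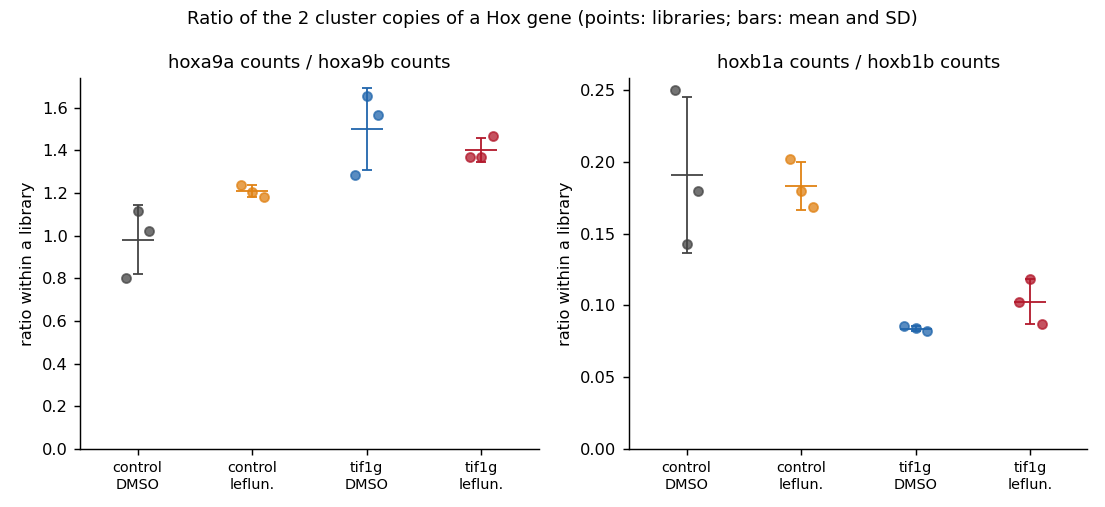
Ratio of the raw counts of the a copy to the b copy (y axis from 0) for hoxb1 and hoxa9 in each library (points) of the 4 groups on the x axis, with bars for the mean and SD of 3 libraries. The hoxb1 ratio is 0.143 or more in each control library and 0.119 or less in each tif1g library.

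Of the 33 Hox rows outside the rule 30 were tested. Of these 13 were called for the knockdown in DMSO, beside 32.8% of all tested genes: 9 were higher and 4 lower, with a median log2 fold change of 0.07. With the replicate block 9 were higher and 7 lower, the added calls being HOXB7 (ENSDARG00000056030, -0.20, adjusted p = 0.0341), HOXD10 (ENSDARG00000057859, -0.28, adjusted p = 0.0282) and HOXA3 (ENSDARG00000103862, -0.20, adjusted p = 0.0419). No share of all genes with the block is given for the knockdown in DMSO, so the counts with the block cannot be read against all genes. Leflunomide in control embryos called 16, all higher, beside 21.9% of all genes called and 8.87% called higher, with a median of 0.37. That count was 12 to 16 when libraries were left out, all higher. The rows of groups 3 to 6 held most of these calls: for the knockdown in DMSO 8 of 13 were higher and 0 lower (1 lower with the block, HOXA3), with a median of 0.41, and for leflunomide in control embryos 12 of 13 were higher, with a median of 0.60. The summed level of those 13 rows was 232, 231 and 257 CPM in control DMSO, 364, 329 and 324 in control leflunomide, 331, 295 and 304 in tif1g DMSO and 373, 336 and 327 in tif1g leflunomide. Control DMSO was the lowest group, as for hoxc3a, the group 3 gene of the rule. The annotated span of hoxc3a overlaps hoxc4a, hoxc5a and hoxc6a, so hoxc3a and the HOXC rows of this sum may share reads. In HOXB5 (ENSDARG00000013057), for example, the knockdown in DMSO gave 0.72 and leflunomide in control embryos 0.65. HOXC6 (ENSDARG00000070343) gave 0.70 and 0.60. The second row of each symbol changed less. HOXB5 (ENSDARG00000054030) had means of 26.1 CPM in control DMSO, 28.9 in tif1g DMSO and 29.6 in control leflunomide (leflunomide in control embryos, adjusted p = 0.213). HOXC6 (ENSDARG00000101954) had 35.0, 41.6 and 45.3 CPM in these groups. Its call for the knockdown in DMSO (adjusted p = 0.0468) was lost in a fit of the compared groups only (0.0506). Among other runs, it was also lost without control DMSO replicate 1 (0.0942) or 2 (0.171), tif1g DMSO replicate 1 (0.237), and replicate 1 (0.219) or 2 (0.131) of all groups. For the knockdown in DMSO the medians of the tested genes of the rule and of these rows had the same sign within each range of groups. They were -0.61 (4 genes) and -0.04 (2 rows) in groups 1 to 2, and 0.12 (2) and 0.41 (13) in groups 3 to 6. In groups 7 to 8 they were -0.17 (1) and -0.02 (3), and in groups 9 to 13 -0.34 (6) and -0.25 (12). The difference between the medians over all groups was not tested, and the rule splits the family by a naming habit of the gene table.

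For the knockdown in leflunomide 4 of the 30 rows were called, 1 higher and 3 lower, beside 23.8% of all genes. With the replicate block 7 were called, for which no share of all genes is given here. For leflunomide in tif1g embryos 0 were called by edgeR's quasi-likelihood test without the block, with 7 at an unadjusted p under 0.05. With the block 3 were called higher. The interaction called 0 of them, with 10 at an unadjusted p under 0.05. With the replicate block 6 rows were called for the interaction, all lower, among them HOXB5 (ENSDARG00000013057, adjusted p = 0.00665) and HOXC6 (ENSDARG00000070343, 0.00441). DESeq2 called HOXC6 (ENSDARG00000070343) alone (0.00765). For leflunomide in tif1g embryos and for the interaction, the block also called more of all genes, as counted in the closing section. In groups 9 to 13 of these rows, the knockdown in DMSO called 3 of 12 lower and 0 higher, and among the tested genes of the rule 2 of 6 were called lower and 0 higher in the same groups, where 17.2% of all genes were called lower. With the block these counts were 4 of 12 and 3 of 6, for which no share of all genes is given here. When libraries were left out, the counts without the block ranged from 1 to 4 and from 0 to 3.

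Genes that act with or upstream of Hox genes were counted from lists, most of whose members passed the filter. The shares of all genes called, against which these counts are to be read, were 32.8% for the knockdown in DMSO (15.6% higher, 17.2% lower), 23.8% for the knockdown in leflunomide and 21.9% for leflunomide in control embryos (8.87% higher, 13.1% lower). They are shares of the fit without the block. No share with the block is given for these comparisons, so the list counts with the block cannot be read against all genes. Of the 12 tested TALE partners, 3 rose and 1 fell with leflunomide in control embryos, and 1 rose and 1 fell with the knockdown in each arm. The knockdown counts, 2 of 12, lie below the share of all genes. With library totals alone 6 rose and 0 fell with leflunomide in control embryos: the fall of pbx2 was lost (adjusted p = 0.554). Among these was meis3 (ENSDARG00000002795), a hindbrain partner of hoxb1b in fish. It rose from 72.8 ± 8.70 to 97.3 ± 11.1 CPM with leflunomide in control embryos (0.42 ± 0.10, adjusted p = 0.00569). With the knockdown in leflunomide it fell by -0.38 ± 0.10 (adjusted p = 0.00995, 0.0831 without replicate 2 of all groups). Of the 14 tested cdx and posterior body regulators, 1 rose with the knockdown in DMSO (wnt3a, 0.42, adjusted p = 0.00417, 0.0586 without replicate 3 of all groups) and 0 fell, and with the block 3 rose and 2 fell. Leflunomide in control embryos lowered 3 of them and raised 0: msgn1 by -0.25 (adjusted p = 0.00924), cdx4 by -0.23 (0.0148) and tbxta by -0.23 (0.0354). This count, 3 of 14, lies near the share of all genes called. With the block 7 fell and 0 rose. With library totals alone the 3 calls were lost, with adjusted p of 0.187, 0.286 and 0.361. Without control leflunomide replicate 2 they were lost as well, with adjusted p of 0.0657, 0.0565 and 0.166. Those of cdx4 and tbxta were also lost without control leflunomide replicate 1 (0.0818 and 0.158) or control DMSO replicate 2 (0.0775 and 0.081), and that of tbxta without control DMSO replicate 3 (0.109).

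Of 20 tested genes of retinoic acid supply and reception, 3 rose and 5 fell with the knockdown in DMSO, 3 rose and 1 fell in leflunomide, and 4 fell and 0 rose with leflunomide in control embryos. The first count, 8 of 20, lies above the share of all genes, and the others, 4 of 20 each, lie just below it. With the block 6 rose and 3 fell with the knockdown in leflunomide, and 1 rose and 6 fell with leflunomide in control embryos. With library totals alone, 1 rose and 2 fell with leflunomide in control embryos, and the falls of rdh10 (adjusted p = 0.105) and rxrb (0.254) were lost. The retinoic acid degrading enzyme cyp26c1 (ENSDARG00000056029) fell with the knockdown in DMSO from 76.8 ± 13.1 to 36.4 ± 10.1 CPM (-1.08 ± 0.23, adjusted p = 0.00639, 0.0981 without replicate 3 of all groups). The retinaldehyde reductase gene dhrs3 (ENSDARG00000044803) fell with leflunomide in control embryos by -0.39 (adjusted p = 0.00036).

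Hindbrain segment genes had 14 tested members. Of these 2 rose and 4 fell with the knockdown in DMSO, and 2 rose and 2 fell in leflunomide. By edgeR's quasi-likelihood test without the block, 0 were called for leflunomide in either kind of embryo. With the block 2 rose and 2 fell with leflunomide in control embryos, and with library totals alone 2 rose and 0 fell. The segment gene egr2 (ENSDARG00000042826), known as krox20, fell with the knockdown in DMSO from 6.23 ± 1.14 to 2.38 ± 0.738 CPM (-1.39 ± 0.38, adjusted p = 0.016) and in leflunomide from 9.88 ± 3.34 to 3.56 ± 1.71 CPM (-1.47 ± 0.36, adjusted p = 0.0125). The call in DMSO was lost without control DMSO replicate 1 (0.0621), tif1g DMSO replicate 2 (0.0689) or tif1g DMSO replicate 3 (0.0547), and that in leflunomide without replicate 1 of all groups (0.0985). The anterior hindbrain gene gbx1 (ENSDARG00000071418) rose in both arms, by 0.71 ± 0.14 (adjusted p = 0.00137) and 0.83 ± 0.15 (adjusted p = 0.00067), and every alternative run kept both calls. Of the 14 anterior neural genes, which lie ahead of Hox expression, 3 rose and 1 fell with the knockdown in DMSO, 3 rose and 3 fell in leflunomide, and 2 rose and 2 fell with leflunomide in control embryos. With the block 5 rose and 3 fell with the knockdown in DMSO, and 3 rose and 4 fell with leflunomide in control embryos. With library totals alone leflunomide in control embryos gave 4 higher and 0 lower, with the falls of dlx3 (adjusted p = 0.294) and rx3 (0.230) lost.

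Of 28 tested Polycomb genes, 8 rose and 4 fell with the knockdown in DMSO, 7 rose and 2 fell in leflunomide, and 3 rose and 8 fell with leflunomide in control embryos. These are 42.9%, 32.1% and 39.3% of the list, beside the shares of all genes of 32.8%, 23.8% and 21.9%. The direction of the last count turned with library totals alone, where 7 rose and 2 fell, with the fall of ezh2 lost (adjusted p = 0.201). The Polycomb members cbx7a and pcgf1 rose with the knockdown in DMSO by 2.08 (adjusted p = 7.62e-07) and 1.05 (adjusted p = 5.91e-07). Of 21 tested Trithorax and H3K27 demethylase genes, 10 rose and 6 fell with the knockdown in DMSO, 7 rose and 4 fell in leflunomide, and 9 rose and 5 fell with leflunomide in control embryos. These are 76.2%, 52.4% and 66.7% of the list. The last count was 14 higher and 2 lower with library totals alone, with the fall of wdr5 lost (adjusted p = 0.0804). The methyltransferase genes kmt2ba (0.60, adjusted p = 4.92e-08), kmt2bb (0.52, 6.98e-07) and kmt2a (0.44, 6.5e-06) rose with the knockdown in DMSO. The demethylase gene kdm6bb fell with the knockdown in DMSO (-0.75, adjusted p = 0.000171) and in leflunomide (-0.90, 2.25e-05). It rose with leflunomide in control embryos (0.73, adjusted p = 0.00032) and was the only member called in tif1g embryos (0.57, adjusted p = 0.0493). That last call was lost in a fit of the compared groups only (0.107) and without any 1 of control DMSO replicate 3, control leflunomide replicates 1 to 3, tif1g DMSO replicates 1 to 3 and tif1g leflunomide replicates 1 and 2, with adjusted p from 0.0603 to 0.224.

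The counts of these lists also move with single libraries. When libraries were left out, the members called for the knockdown in DMSO numbered 0 to 3 of the TALE partners, 0 to 2 of the cdx and posterior regulators, 3 to 8 of the retinoic acid genes, 1 to 7 of the hindbrain genes, 3 to 6 of the anterior neural genes, 8 to 13 of the Polycomb genes and 13 to 17 of the Trithorax genes. For leflunomide in control embryos the ranges, in the same order, were 1 to 4, 0 to 5, 1 to 5, 0 to 2, 1 to 5, 4 to 11 and 6 to 13. For leflunomide in tif1g embryos the block called 4, 0, 5, 1, 2, 4 and 4 members of these lists, where the fit without it called kdm6bb alone. The block called more of all genes in that comparison as well, as counted in the closing section.

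Set against control DMSO, embryos with both the knockdown and leflunomide had 4 of the 13 tested Hox genes called, beside 36.0% of all genes (17.3% higher and 18.7% lower). Lower were hoxb1a (-0.84 ± 0.13, adjusted p = 7.27e-05) and hoxa2b, and higher were hoxc3a and hoxa9a, with a median log2 fold change of -0.01 over the 13 genes. Every alternative run kept the call for hoxb1a.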

How the data were processed

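The authors deposited raw read counts per gene as whole numbers, for 32520 Ensembl genes in 12 libraries. The submitters' processing notes name cutadapt, FastQC, TopHat2 2.0.11, HTSeq and Cufflinks 2.2.1, and genome build GRCz11. The libraries were directional. No source used here gives the strand setting of the counting, so genes that overlap can carry each other's reads. Gene symbols came from a table of names that covered 29201 of the identifiers.

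Of 30339 genes with at least 1 count, 21400 passed filterByExpr (edgeR 4.0.16, R 4.3.3). Counts were scaled by TMM factors (0.926 to 1.05), and 1 robust quasi-likelihood model of 4 group means was fitted to all libraries (biological coefficient of variation 0.113). P-values were adjusted by Benjamini-Hochberg over the 21400 genes, and a gene was called under 0.05. Levels are TMM-scaled CPM and changes are log2 fold changes ± SE. The procedure was tested on simulated data. Replicates differed by more than sampling noise, with a chi-square of 7.09 to 15.0 for each degree of freedom over genes with at least 20 counts. Alternatives were other scaling (median of ratios, library totals alone), no filter, a mean of at least 50 counts, the compared groups only, a replicate block, leaving out each library or each replicate number, and DESeq2 1.42.0.

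Per the design text, embryos of a clutch were divided between leflunomide and DMSO. Samples with the same replicate number deviated together: all 18 correlations of their deviations from the group means were over 0.1 (0.156 to 0.274). The block is therefore given beside the calls it changed among the 15 genes, and beside the counts it moved by over 1.5 times for the other Hox rows and the lists.

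The 15 genes and the gene lists were chosen with earlier results of these data known. Named are the members called in any comparison or among the 10 most abundant, and up to 3 called members of a list in each direction. Spans of neighbouring genes came from RefSeq of assembly GRCz12tu, which matched all 15 symbols and whose coordinates are not used here. No sequence, gene length or position was used, so levels are not compared between genes.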

Additional observations from a re-analysis of the deposited data

How the results depend on the processing

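Over the Hox genes, 1676 values of a gene under an alternative were computed, of which 1562 kept their direction and side of the threshold, 47 lost the call, 20 gained it and 47 changed sign. The 47 changes of sign fell in 17 results, and 0 of them were of a value called with or without the alternative. With library totals alone the log2 fold change became 0.0527 in hoxb6b for the knockdown in DMSO, 0.0963 in hoxb8b for leflunomide in control embryos, and 0.11 in hoxb8b and 0.0172 in hoxa9b for tif1g leflunomide against control DMSO. With the stricter filter hoxb8b became 0.00224 and 0.0235 in those 2 comparisons. The other 41 came from leaving out libraries. For the knockdown in DMSO the ranges were hoxb6b -0.13 to 0.11 and hoxc11b -0.82 to 0.0992. For the knockdown in leflunomide the ranges were hoxa10b -0.15 to 0.22, hoxa13b -0.45 to 0.0229, hoxa9a -0.0988 to 0.0884 and hoxb8b -0.0545 to 0.11. For leflunomide in control embryos the ranges were hoxa13b -0.62 to 0.0656, hoxa9b -0.0117 to 0.25 and hoxb8b -0.11 to 0.0443. For the interaction the ranges were hoxa2b -0.53 to 0.11, hoxb10a -0.0706 to 0.0942 and hoxc1a -0.26 to 0.14. For tif1g leflunomide against control DMSO the ranges were hoxa10b -0.097 to 0.47, hoxa9b -0.27 to 0.0381, hoxb1b -0.055 to 0.15, hoxb6b -0.0963 to 0.16 and hoxb8b -0.0925 to 0.0749. The count of called genes of the 13 tested ranged, when libraries were left out, from 3 to 6 for the knockdown in DMSO, 2 to 5 for the knockdown in leflunomide, 0 to 4 for leflunomide in control embryos, 0 to 0 in tif1g embryos, 0 to 0 for the interaction and 3 to 5 for tif1g leflunomide against control DMSO. For the other Hox rows the ranges were 10 to 13, 1 to 5, 12 to 16, 0 to 0, 0 to 0 and 10 to 12, and for all genes 4720 to 6979, 3006 to 5289, 2114 to 4641, 0 to 208, 0 to 0 and 5310 to 7705. Without control leflunomide replicate 2 the count of all genes for leflunomide in control embryos was 3107. With the replicate block, leflunomide in tif1g embryos called 2 of the 13 tested Hox genes and 3 of the 30 other Hox rows. Of all 21400 tested genes it called 1518 (132 without the block). The knockdown in leflunomide called 7 other Hox rows with the block, where no share of all genes is given. The interaction called 6 other Hox rows and 1067 of the 21400 genes with the block (0 without it, with 2560 at an unadjusted p under 0.05). The block changed no other count of the 13 tested Hox genes, the other Hox rows or all genes by over 1.5 times. Counts of the gene lists and markers that it moved further are given where these are described. For leflunomide in tif1g embryos all genes gave 66 with library totals alone, 40 in a fit of the compared groups only and 652 by DESeq2. For the interaction they gave 3 with library totals alone, 1 with no filter and 364 by DESeq2, which called 1 other Hox row. The summed CPM of the 15 genes moved with library totals alone to 372.9 in control leflunomide and 371.2 in tif1g leflunomide. That scaling moved the median log2 fold change of all genes to 0.16 for leflunomide in control embryos and 0.13 for tif1g leflunomide against control DMSO. The cause of these changes was not tested. The interaction uses all 4 groups, so a fit of the compared groups only was not run for it. Depth limits hoxc11b and the group 13 genes, which had at most 64 counts a library.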
